A study of Mus musculus with 15 samples.

Results

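The genes of the proteasome, the protease that degrades ubiquitin-tagged proteins, were examined in whole mouse hearts after polymicrobial sepsis. They were taken as the probe sets paired with a single gene whose symbol starts with Psm, a letter from a to g and a digit, and probe sets of a gene were averaged. The rule gave 48 genes on 85 probe sets, of 12393 genes measured in all. Of these, 42 are constitutive subunits and regulators, 4 belong to the immunoproteasome (Psmb8, Psmb9, Psmb10 and Psme1), and 2 match by name only: Psmc3ip and Psme3ip1 are partner proteins, not subunits. The fifth immunoproteasome gene, Psme2, lay only on a probe set annotated to both Psme2b and Psme2 and has no value here.

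The series holds 15 arrays in 5 groups of 3, each array hybridised with total RNA of whole heart removed 48 h after surgery. Septic wild-type C57/BL6 mice had CLP (caecal ligation and perforation: tying off the caecum and piercing it, which lets gut bacteria into the abdomen), and the labels split them into Max Dep and Min Dep groups without saying what the words measure. Sham-operated C57/BL6 mice, whose caecum was only handled, were their controls. Septic and sham-operated mice of the congenic iNOS knockout strain B6.129P2-Nos2tm1Lau/J, which lacks inducible nitric oxide synthase in every cell, made up the other groups. All mice received isoflurane, buprenorphine and saline, and all hearts were removed after a catheter measurement of contractility under ketamine and xylazine. Age and sex are not given in the sources used here, and neither is any pooling of hearts, so each array is counted as a heart.

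The proteasome is a barrel of stacked rings, the 20S core, whose outer rings are built of alpha subunits and whose inner rings of beta subunits hold the catalytic sites. The 19S cap at its ends binds ubiquitin chains, removes them, and unfolds the substrate with a ring of ATPases. Interferon-gamma induces replacement catalytic subunits: Psmb9 takes the place of Psmb6, Psmb10 that of Psmb7 and Psmb8 that of Psmb5. The resulting immunoproteasome, often capped by an activator of Psme1 and Psme2, makes peptides for display on class I molecules and is abundant in leukocytes. In heart muscle the proteasome carries out much of the turnover of damaged and contractile proteins.

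Wild-type values are in standardised units, in which each probe set was scaled to the same spread over the 9 arrays. For a single probe set, a difference of 1 unit is therefore of the size of that spread, not a fold change. No gene's level can be set against another's or against a tissue marker's. In the 21 members with several probe sets, averaging can narrow the spread, so rankings by difference can favour genes with a single probe set. Knockout values behave as log differences centred per probe set, with a base that is not given. Both genotypes lie in separate tables from different array models, so genotype and table cannot be told apart and no difference between genotypes was tested. Nothing says whether hearts of a group came from separate experiments, so p-values measure the spread between these arrays.

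Some arrays stood apart before any proteasome gene was considered. A 5′ minus 3′ difference was taken over the Actb and Gapdh control probe sets. Measured on signals, it falls as RNA is degraded. Here each probe set was scaled (wild type) or centred (knockout) on its own, so the difference is not a signal ratio. It is at most a rough guide to RNA quality within a table. The difference was -0.81, 0.53 and -1.85 in Max Dep and 0.07, -0.08 and -0.56 in Min Dep. In wild-type sham hearts it was 0.55, 0.39 and 1.76. It was -1.07, -2.06 and -0.78 in knockout CLP hearts, against -1.97, 0.21 and 0.98 in knockout sham hearts. Wild-type sham replicate 1 differed from the other 8 wild-type hearts in Xist (2.66, against -0.51 to -0.22 on the same probe set) and in the Y-linked Eif2s3y (-2.48). Knockout sham replicate 2 stood apart likewise, with Xist at -6.91 and Eif2s3y at 5.76. Knockout CLP replicate 1 had Xist at -3.63 with Eif2s3y at -0.06. Its values also lay between those of the other CLP columns in 76% of probe sets, with an SD of 0.683 against 1.09 and 1.05, and it was left out of the knockout fit. In bulk tissue, fewer cells of a type and less RNA per cell cannot be told apart.

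In wild-type hearts no proteasome gene passed the adjusted threshold in CLP against sham. With limma, 0 of 48 had an adjusted p under 0.05, where 0.718% of all 12393 genes did, and limma's eBayes gave 0 of 48 and 0 of all genes. At an unadjusted p under 0.05 there were 13 members (27.1%), against 18.6% of all genes: 8 were higher in CLP (9.23% of all genes were) and 5 were lower (9.38% of all genes were). The difference was above 0 in 31 of the 48, or 64.6%, against 50.8% of all genes, and the members' median difference was 0.34, against 0.02 over all genes. All 3 activators lay lower in CLP, and all 6 ATPases of the cap and all 4 assembly chaperones of the core (Psmg1 to Psmg4) lay higher. Of the 21 members with several probe sets, 13 had probe sets of opposite sign in this comparison. With the control end difference as a covariate, 8 of 48 members (16.7%) had an unadjusted p under 0.05 in place of 13, against 12.7% of all genes in that fit.

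**Figure D1:**
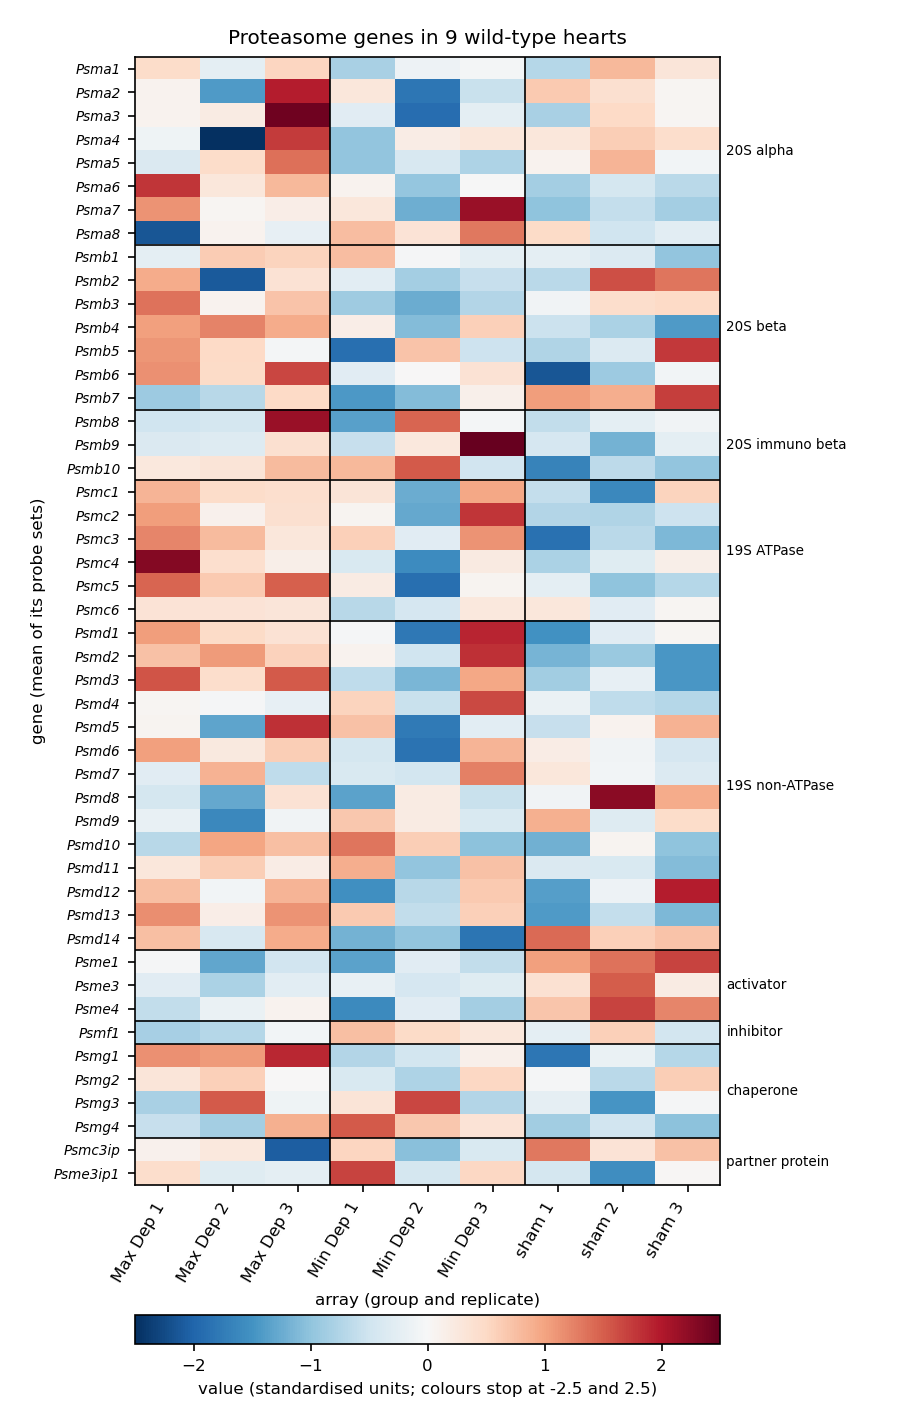
Values of the 48 proteasome genes (rows, grouped by role) in the 9 wild-type hearts (columns: Max Dep, Min Dep, sham), as colours in standardised units. The 3 activators are high in the sham hearts, whose class means are 0.70, 1.52 and 1.04, and below 0 in the class mean of each septic heart.

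Among the activators, which open the 20S core without the 19S cap, Psme1 and Psme4 held the smallest p-values of all members in CLP against sham, and Psme3 did not. Psme1, a subunit of the interferon-inducible activator, was at -0.02, -1.30 and -0.48 in Max Dep, -1.33, -0.28 and -0.62 in Min Dep, and 1.03, 1.36 and 1.68 in sham hearts. Every septic heart lay below every sham heart. The difference between CLP and sham was -2.03 ± 0.37 (SE; 95% interval -2.93 to -1.13), from -0.67 ± 0.54 (SD, n = 6) in CLP and 1.36 ± 0.33 (SD, n = 3) in sham hearts, and limma's adjusted p was 0.0679. Over 13 alternatives that p ran from 0.0525 to 0.252 and the difference from -2.29 to -1.85. It was the largest negative difference among the members and did not pass the threshold. The scaling bounds such differences, which over all genes ran only from -2.14 to 2.03 in CLP against sham. A value near those limits shows how cleanly the groups separated, not how much expression changed.

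Psme4, the large single-chain activator found mainly in nuclei, was at -0.62, -0.17 and 0.09 in Max Dep, -1.59, -0.29 and -0.84 in Min Dep, and 0.69, 1.68 and 1.23 in sham hearts. The septic and sham values did not overlap. CLP averaged -0.57 ± 0.60 and sham 1.20 ± 0.49 (SD, n = 6 and 3), a difference of -1.77 ± 0.36 (SE, limma's adjusted p = 0.0809). Its 3 probe sets ran the same way in CLP against sham, and when every probe set was tested on its own, 1426824_at passed in CLP against sham (-2.14 ± 0.20, adjusted p = 0.0242), in Max Dep against sham (-2.11 ± 0.23, adjusted p = 0.033) and in Min Dep against sham (-2.16 ± 0.23, adjusted p = 0.0453). Tested that way, 2.52%, 1.08% and 0.55% of all 20380 probe sets passed in these comparisons, against 2, 1 and 2 of the members' 85 (2.35%, 1.18% and 2.35%). The Psme4 probe sets 1426823_s_at and 1452211_at differed by -1.43 ± 0.49 and -1.74 ± 0.46 in CLP against sham (adjusted p = 0.177 and 0.108). Over the 13 alternatives of CLP against sham, the adjusted p of Psme4 ran from 0.0242 to 0.288.

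Psme3, the activator of the nucleus that is not part of the interferon response, was at -0.28, -0.80 and -0.26 in Max Dep, -0.18, -0.42 and -0.30 in Min Dep, and 0.38, 1.51 and 0.21 in sham hearts. All 6 septic hearts lay below the sham hearts, and the difference was -1.07 ± 0.32 (SE, adjusted p = 0.16 by limma), or -0.67 without sham replicate 2. Its probe sets disagreed: 1418078_at and 1418079_at of Psme3 differed by -1.88 ± 0.40 and -1.73 ± 0.54, and 1438509_at by 0.39 ± 0.51. Psmf1, which binds the core and inhibits it, was at -0.83, -0.72 and -0.06 in Max Dep, 0.75, 0.47 and 0.29 in Min Dep, and -0.25, 0.59 and -0.45 in sham hearts, a difference of 0.02 ± 0.30 between CLP and sham (adjusted p = 0.979). Its Max Dep and Min Dep hearts lay on opposite sides of 0.

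Of the 48 members, 40 had a promoter window in RefSeq (build GRCm38.p6), spanning 250 bases before to 50 bases after an annotated start site. Shown are the windows of the 4 members with the smallest p in CLP against sham, 2 in each direction, among those with a window. All 4 are on the plus strand, and capitals mark the matches to the motifs searched: Psme1 (chr14:55578244-55578543) and Psme4 (chr11:30771525-30771824) lay lower in CLP, and Psmd13 (chr7:140882144-140882443) and Psmd2 (chr16:20651402-20651701) lay higher. In Psme1, Psme4 and Psmd13 that start site is the start of the annotated gene, and in Psmd2 it lies 530 bases inside the gene, which starts at 20651122. Of the members' 43 windows, 32 were placed at the gene's outer end and 11 at another start site.
Psme1: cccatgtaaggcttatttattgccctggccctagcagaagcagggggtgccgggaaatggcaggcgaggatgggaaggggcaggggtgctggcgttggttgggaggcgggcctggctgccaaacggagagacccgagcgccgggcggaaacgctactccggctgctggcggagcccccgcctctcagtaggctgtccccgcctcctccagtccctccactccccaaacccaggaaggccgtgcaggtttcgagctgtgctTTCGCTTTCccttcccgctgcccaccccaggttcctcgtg
Psme4: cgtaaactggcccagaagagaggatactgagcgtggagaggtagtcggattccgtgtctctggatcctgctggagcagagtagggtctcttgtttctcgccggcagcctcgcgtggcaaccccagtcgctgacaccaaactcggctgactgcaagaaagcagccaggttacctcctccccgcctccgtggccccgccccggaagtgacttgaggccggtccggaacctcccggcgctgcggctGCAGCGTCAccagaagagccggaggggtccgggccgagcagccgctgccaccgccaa
Psmd13: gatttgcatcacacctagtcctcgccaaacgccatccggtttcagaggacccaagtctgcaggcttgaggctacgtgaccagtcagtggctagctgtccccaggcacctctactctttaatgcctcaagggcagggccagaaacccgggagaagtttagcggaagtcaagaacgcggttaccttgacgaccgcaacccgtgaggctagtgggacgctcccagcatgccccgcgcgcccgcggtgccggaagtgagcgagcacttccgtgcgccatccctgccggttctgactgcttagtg
Psmd2: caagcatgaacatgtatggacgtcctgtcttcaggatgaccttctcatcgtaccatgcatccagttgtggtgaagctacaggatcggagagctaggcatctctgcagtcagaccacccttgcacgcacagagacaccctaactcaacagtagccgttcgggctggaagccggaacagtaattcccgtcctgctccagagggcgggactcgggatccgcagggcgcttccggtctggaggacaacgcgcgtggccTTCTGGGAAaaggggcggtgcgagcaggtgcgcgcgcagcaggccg

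Each motif was searched on both strands. The interferon-stimulated response element GAAANNGAA matched the Psme1 window on its minus strand, at TTCGCTTTC starting 10 bases after the start site. The antioxidant response element TGACNNNGC, bound by the Nrf factors that control proteasome genes, matched the Psme4 window on its minus strand at GCAGCGTCA, 7 bases before the start site. The gamma-activated site TTCNNNGAA matched the Psmd2 window at TTCTGGGAA, 4 bases after the start site of that window. None of the 4 patterns, the last being the CCAAT box CCAAT, matched the Psmd13 window. Over the 43 windows of the members, the antioxidant element was in 6 (12.4% of all 32851 windows held it), the interferon-stimulated element in 7 (8.56% of all), the gamma-activated site in 3 (8.3% of all) and the CCAAT box in 15 (37.4% of all). These patterns are short, the matches are descriptions of letters, and the gamma-activated pattern is its own reverse complement.

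The 3 immunoproteasome beta subunits lay higher in CLP than in sham, with a median difference of 0.97 and 0 called, and of the constitutive forms they replace Psmb6 lay higher and Psmb7 and Psmb5 lower. Psmb10, the trypsin-like immunoproteasome subunit, was at 0.27, 0.33 and 0.80 in Max Dep, 0.81, 1.54 and -0.48 in Min Dep, and -1.67, -0.66 and -0.99 in sham hearts. Its septic hearts all lay above its sham hearts, by 1.65 ± 0.48 (SE; 95% interval 0.47 to 2.83), with a limma adjusted p of 0.155. Psmb7, the constitutive subunit whose place it takes, was at -0.91, -0.69 and 0.50 in Max Dep, -1.44, -1.08 and 0.13 in Min Dep, and 1.04, 0.90 and 1.73 in sham hearts. Here every septic heart lay below every sham heart, by -1.80 ± 0.49 (SE, adjusted p = 0.136). Groups without overlap and higher in CLP were found in 3 of the 48 members (Psmb10, Psmc3 and Psmd2), against 5.89% of all genes. Those lower in CLP were 4 of the 48 (Psmb7, Psme1, Psme3 and Psme4), against 6.11% of all genes.

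The other catalytic pairs were less separated. Psmb9, the caspase-like position's immunoproteasome form, was at -0.36, -0.32 and 0.40 in Max Dep, -0.58, 0.27 and 2.74 in Min Dep, and -0.42, -1.18 and -0.24 in sham hearts. Min Dep replicate 3 alone was far above the rest, and the difference of 0.97 ± 0.75 (SE; 95% interval -0.87 to 2.82) had an adjusted p of 0.56. Its counterpart Psmb6 was at 1.14, 0.48 and 1.67 in Max Dep, -0.29, 0.00 and 0.36 in Min Dep, and -2.13, -0.91 and -0.07 in sham hearts. Max Dep hearts were the highest of the 3 groups and sham hearts mostly the lowest, with a CLP difference of 1.59 ± 0.51 (SE, adjusted p = 0.179). Without wild-type sham replicate 1, that difference of Psmb6 was 1.05.

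Psmb8, the chymotrypsin-like immunoproteasome form, was at -0.50, -0.44 and 2.15 in Max Dep, -1.36, 1.45 and -0.04 in Min Dep, and -0.61, -0.25 and -0.09 in sham hearts. One heart of each septic group was high and the rest overlapped the sham hearts, so that the difference was 0.52 ± 0.85 (SE; 95% interval -1.56 to 2.61, adjusted p = 0.80). Psmb5, its constitutive counterpart, was at 1.10, 0.49 and -0.04 in Max Dep, -1.89, 0.72 and -0.51 in Min Dep, and -0.75, -0.35 and 1.76 in sham hearts. Its groups overlapped throughout, with a difference of -0.24 ± 0.80 (SE, adjusted p = 0.91). Of the 4 immunoproteasome genes, 3 lay higher and 1 lower in CLP, with a median difference of 0.75. By limma or its eBayes 0 were called, and 2 had an unadjusted p under 0.05 by limma (18.6% of all genes did).

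**Figure D2:**
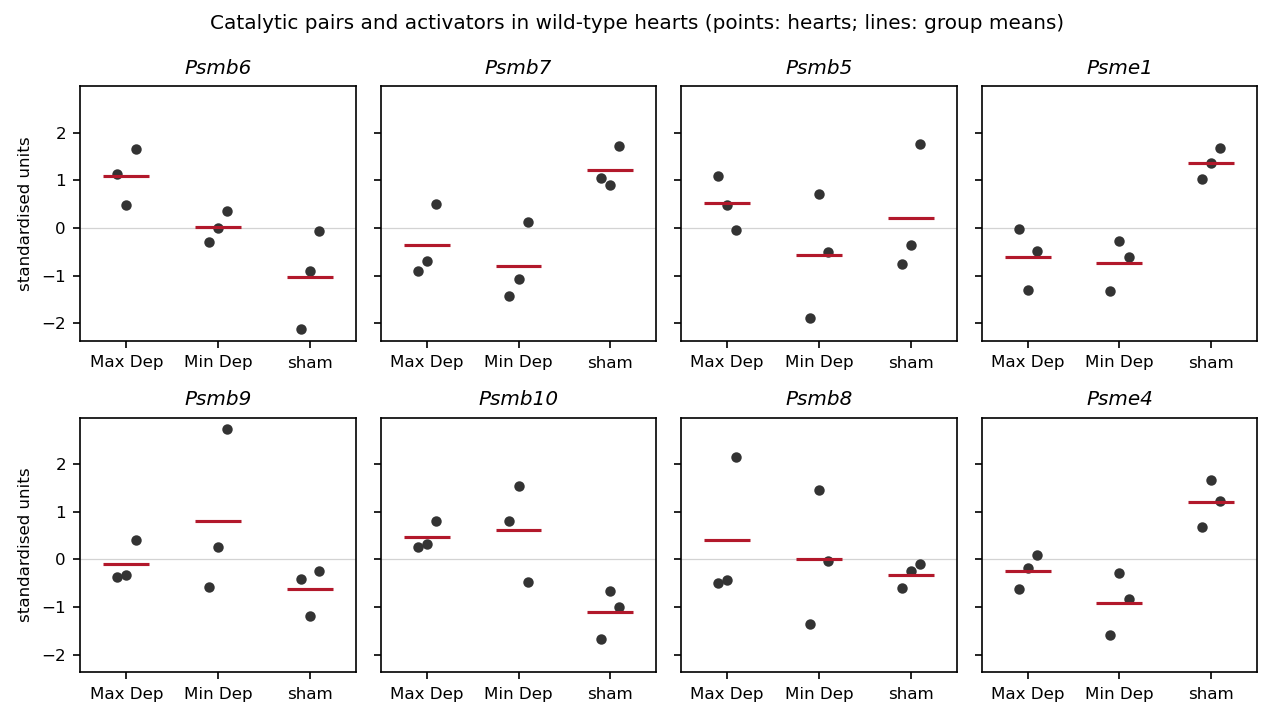
Values of the catalytic subunits Psmb6, Psmb7 and Psmb5 with their immunoproteasome forms Psmb9, Psmb10 and Psmb8, and of the activators Psme1 and Psme4, in standardised units; points are hearts and lines are group means (Max Dep, Min Dep, sham; n = 3 each). Psmb10 lies above its sham hearts in every septic heart, and Psmb7, Psme1 and Psme4 lie below theirs.

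Macrophage and neutrophil markers were higher in most cases in the same contrast. Of 15 macrophage genes measured, 15 lay higher in CLP than in sham, with a median difference of 1.80, and 2 passed limma's adjusted threshold: Tyrobp (2.01 ± 0.19 SE, adjusted p = 0.029) and Fcer1g (2.03 ± 0.22 SE, adjusted p = 0.0307). The macrophage list's mean per heart was 0.48 to 1.13 in Max Dep, 0.05 to 0.49 in Min Dep and -1.38 to -0.58 in sham hearts. Of 12 neutrophil genes, 10 lay higher, and S100a8 and S100a9 passed (1.93 ± 0.24 and 1.92 ± 0.26 SE, adjusted p = 0.0395 and 0.0498). The neutrophil list's mean was 0.18 to 0.87 in Max Dep, -0.08 to 0.68 in Min Dep and -0.94 to -0.55 in sham hearts. Standardised values do not show whether a marker is absent. The part of these cells in the immunoproteasome values was not tested.

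Most genes grouped by symbol with the 19S cap lay higher in CLP. All 6 ATPases differed in the same direction, by 0.01 to 1.85 with a median of 0.92. Of these, 1 had an unadjusted p under 0.05 (18.6% of all genes did). The 0.01 was that of Psmc6, whose probe sets differed by -0.79, 1.27 and -0.46. In Max Dep against sham 6 of 6 ATPases lay higher (median 1.23) and in Min Dep against sham 4 of 6 did (median 0.34). The ATPase with an unadjusted p under 0.05 in CLP against sham was Psmc3, at 1.23, 0.80 and 0.28 in Max Dep, 0.60, -0.28 and 1.13 in Min Dep, and -1.86, -0.67 and -1.13 in sham hearts. No septic heart of Psmc3 overlapped a sham heart. The difference was 1.85 ± 0.43 (SE; 95% interval 0.80 to 2.90), with an adjusted p of 0.101 by limma and a range of 0.0774 to 0.333 over the alternatives.

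The 14 Psmd genes were grouped by symbol as the genes of the cap that are not ATPases. The group includes Psmd5, Psmd9 and Psmd10, which help to assemble the cap and are not subunits of the finished form. They differed by -0.24, -0.57 and 1.04 in CLP against sham. Of all 14, 9 lay higher and 5 lower in CLP, with 11 of 14 higher in Max Dep and 8 of 14 in Min Dep against sham. Psmd2, the large scaffold subunit that docks ubiquitin receptors, was at 0.74, 1.06 and 0.58 in Max Dep, 0.08, -0.49 and 1.83 in Min Dep, and -1.17, -0.92 and -1.45 in sham hearts. Its septic hearts lay above its sham hearts without overlap, by 1.82 ± 0.51 (SE, adjusted p = 0.145). Psmd13, a lid subunit, was at 1.17, 0.17 and 1.13 in Max Dep, 0.66, -0.62 and 0.59 in Min Dep, and -1.42, -0.59 and -1.13 in sham hearts, a difference of 1.56 ± 0.41 (SE, adjusted p = 0.129). Of its septic hearts, Min Dep replicate 2 overlapped the sham hearts. Psmd4, a ubiquitin receptor, and Psmd11, a lid subunit needed for assembly of the cap, differed by 0.74 ± 0.47 and 0.90 ± 0.47 (SE, adjusted p = 0.466 and 0.369). The probe sets of both genes disagreed in sign, from -0.40 to 1.46 in Psmd4 and from -0.34 to 1.73 in Psmd11.

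Psmd14, the enzyme that cuts ubiquitin chains off the substrate, ran the other way. It was at 0.76, -0.41 and 0.93 in Max Dep, -1.19, -0.98 and -1.83 in Min Dep, and 1.42, 0.59 and 0.71 in sham hearts. The Min Dep hearts lay below all others, and the Max Dep hearts overlapped the sham hearts. Against sham, Psmd14 differed by -2.24 ± 0.45 in Min Dep (SE, adjusted p = 0.0975), the largest negative difference of the members in that comparison. Max Dep against Min Dep gave 1.76 ± 0.45 (SE, adjusted p = 0.392), so that the difference between the septic groups did not pass the threshold.

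The rings of the 20S core had no common direction. Of 8 alpha subunits 4 lay higher and 4 lower in CLP, between -0.67 and 1.24, and of 7 constitutive beta subunits 3 lay higher and 4 lower, between -1.80 and 1.59. Psma7, an alpha subunit that also binds signalling proteins, was at 1.13, 0.05 and 0.16 in Max Dep, 0.28, -1.22 and 2.16 in Min Dep, and -1.0, -0.60 and -0.85 in sham hearts. Min Dep replicate 2 lay below the sham hearts and the other septic hearts above them, and the difference was 1.24 ± 0.74 (SE, adjusted p = 0.438). Psmb4, a beta subunit without catalytic activity, was at 1.03, 1.24 and 0.93 in Max Dep, 0.17, -1.09 and 0.59 in Min Dep, and -0.53, -0.80 and -1.42 in sham hearts, a difference of 1.40 ± 0.41 (SE, adjusted p = 0.155). Its Max Dep hearts were the highest, and Min Dep replicate 2 was among the sham hearts.

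The chaperones that assemble the core lay higher in CLP in 4 of 4 cases, by 0.07 to 1.41. The 0.07 was that of Psmg2, whose probe sets disagreed, with -1.20 ± 0.54 for 1425373_a_at and 1.33 ± 0.53 for 1448212_at. Psmg1, which forms the alpha ring's assembly factor together with Psmg2, was at 1.15, 1.06 and 1.88 in Max Dep, -0.73, -0.45 and 0.12 in Min Dep, and -1.81, -0.17 and -0.72 in sham hearts. The Max Dep hearts stood above all others, and Min Dep and sham hearts overlapped. CLP against sham gave 1.41 ± 0.43 (SE, adjusted p = 0.166) and Max Dep against sham gave 2.26 ± 0.49 (SE; 95% interval 1.06 to 3.47, adjusted p = 0.115), the largest positive difference of any member in the wild-type comparisons. The name-only partners Psmc3ip and Psme3ip1 differed by -1.23 and 0.93 between CLP and sham, with adjusted p-values of 0.388 to 0.454.

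**Figure D3:**
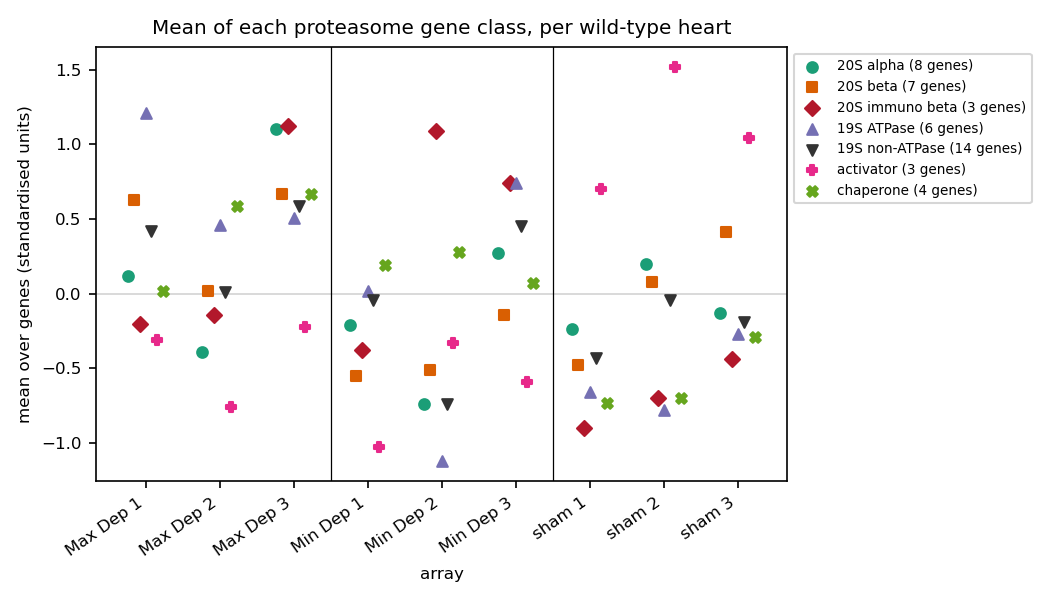
Mean value of each class of proteasome genes in each wild-type heart (Max Dep, Min Dep, sham), in standardised units; each marker is the mean over the genes of a class. Activators lie at 0.70 to 1.52 in sham hearts and -1.03 to -0.22 in septic hearts, and 19S ATPases at 0.46 to 1.21 in Max Dep, 0.02, -1.12 and 0.74 in Min Dep and -0.78 to -0.27 in sham hearts.

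The septic groups were also set against sham one at a time; both comparisons use the same 3 sham hearts, and so their values are given side by side only. In Max Dep against sham limma called 0 of 48 members (0.452% of all genes were called; eBayes called 0 members and 0 of all genes), with 14 at an unadjusted p under 0.05 (16.7% of all genes), 10 higher (8.87% of all) and 4 lower (7.84% of all). In Min Dep against sham limma called 0 of 48 (0.0565% of all genes; eBayes called 0 members and 0 of all genes), with 11 at an unadjusted p under 0.05 (16.4% of all), 5 higher (7.65% of all) and 6 lower (8.77% of all). The difference was above 0 in 35 of 48 for Max Dep (46.8% of all genes), with a median of 0.57 against -0.09 over all genes. For Min Dep it was above 0 in 26 of 48 (54.5% of all genes), with a median of 0.25 against 0.12 over all genes. Without Min Dep replicate 3 that median was -0.12, and with the end difference as covariate the medians were 0.29 for Max Dep and -0.03 for Min Dep.

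Max Dep hearts lay wholly above sham hearts in 16 members (13.8% of all genes did) and wholly below in 5 (12.7% of all). The 16 held 6 genes of the cap that are not ATPases, 4 ATPases, 2 alpha subunits, Psmb4, Psmb6, Psmb10 and Psmg1. The 5 were Psmb7, Psmc3ip, Psme1, Psme3 and Psme4. Min Dep hearts lay wholly above sham hearts in 5 members (Psmb1, Psmb10, Psmc3, Psmd2 and Psmg4; 10.9% of all genes) and wholly below in 7 (Psma5, Psmb3, Psmb7, Psmd14, Psme1, Psme3 and Psme4; 12.4% of all). The members of largest difference in Max Dep against sham, after Psmg1, were Psmb6 (2.13 ± 0.58 SE, adjusted p = 0.162) and Psmd3, a lid subunit (2.02 ± 0.67, adjusted p = 0.224). On the lower side they were Psme1 (-1.96 ± 0.43 SE, adjusted p = 0.115), Psmb7 (-1.59 ± 0.57, adjusted p = 0.248) and Psmd8, another lid subunit (-1.48 ± 0.77, adjusted p = 0.388). In Min Dep against sham they were Psmb10, Psmc3 and Psmd2 on the higher side, at 1.73, 1.71 and 1.66, and Psmd14, Psme4 and Psme1 on the lower side, at -2.24, -2.11 and -2.10.

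Max Dep hearts had higher values than Min Dep hearts in most subunits, none past the threshold. By limma 0 of 48 members were called, as were 0% of all genes (eBayes also called 0 members and 0 of all genes), and 8 had an unadjusted p under 0.05 (9.81% of all genes): 7 higher in Max Dep (5.21% of all) and 1 lower (4.6% of all). The difference was above 0 in 35 of 48 (46.7% of all genes), including 7 of 7 constitutive beta subunits and 6 of 6 ATPases, with a median of 0.41 against -0.08 over all genes. Min Dep replicate 2 had the lowest mean of the 35 genes grouped by symbol as constitutive core and cap subunits, at -0.76. Without it the median difference was 0.26, and without Min Dep replicate 3 it was 0.76. The control end difference also separated the septic groups in part, and with it as a covariate 4 members (8.33%) had an unadjusted p under 0.05, against 7.84% of all genes, and the median was 0.29.

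Psmb3, a beta subunit without catalytic activity, had the smallest p between the septic groups, at 1.36, 0.09 and 0.71 in Max Dep, -0.88, -1.25 and -0.73 in Min Dep, and -0.09, 0.43 and 0.49 in sham hearts. The Min Dep hearts lay below all others, and the difference from Max Dep was 1.67 ± 0.36 (SE; 95% interval 0.80 to 2.55, adjusted p = 0.338). Both Psmb3 probe sets gave about that difference, 1.66 ± 0.26 and 1.69 ± 0.74. Against sham they disagreed: 1417052_at of Psmb3 differed by -2.43 ± 0.26 in Min Dep (adjusted p = 0.0429 over all probe sets) and by -1.60 ± 0.22 in CLP (adjusted p = 0.0356), and 1460198_a_at by -0.04 ± 0.74 and 0.81 ± 0.64. As the mean of its probe sets, Psmb3 had an adjusted p of 0.186 in Min Dep against sham.

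The other members of largest difference between Max Dep and Min Dep were Psmd14 and Psmc5, an ATPase of the cap, on the higher side and Psma8, Psmf1 and Psmg4 on the lower side. Psmc5 was at 1.46, 0.65 and 1.5 in Max Dep, 0.20, -1.89 and 0.07 in Min Dep, and -0.25, -1.01 and -0.71 in sham hearts, a difference of 1.74 ± 0.62 between the septic groups (SE, adjusted p = 0.469). Its Max Dep hearts stood above all others. Psmg1 differed by 1.72 ± 0.49 (SE, adjusted p = 0.434) and Psmf1 by -1.04 ± 0.34 (SE, adjusted p = 0.447), with Max Dep and Min Dep hearts apart in both. Psma8, a testis-specific alpha subunit, was at -2.14, 0.08 and -0.20 in Max Dep and 0.78, 0.35 and 1.32 in Min Dep, a difference of -1.57 ± 0.66 (SE, adjusted p = 0.514). Psmg4, a chaperone of the alpha ring, differed by -1.03 ± 0.54 (SE, adjusted p = 0.571). Max Dep hearts lay wholly above Min Dep hearts in 10 members (7.89% of all genes) and wholly below in 2, Psma8 and Psmf1 (7.43% of all).

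Between the septic groups the immunoproteasome genes had no common direction. Their differences between Max Dep and Min Dep were 0.39 ± 0.98 for Psmb8, -0.90 ± 0.87 for Psmb9, -0.16 ± 0.56 for Psmb10 and 0.14 ± 0.43 for Psme1 (SE), with adjusted p-values of 0.737 to 0.936. Over the 42 constitutive genes 33 lay higher in Max Dep, with a median of 0.57, and over the 4 immunoproteasome genes 2 did, with a median of -0.01. The difference between these classes was not tested. Across the 9 hearts, the members that tracked the mean of the other subunits most closely were Psmd3 (Pearson r = 0.86), Psmc5 and Psmd6 (r = 0.83 each), and Psmg3 had the lowest r, at -0.48. These hearts share a scaling of the arrays, and the correlations are given as a description.

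**Figure D4:**
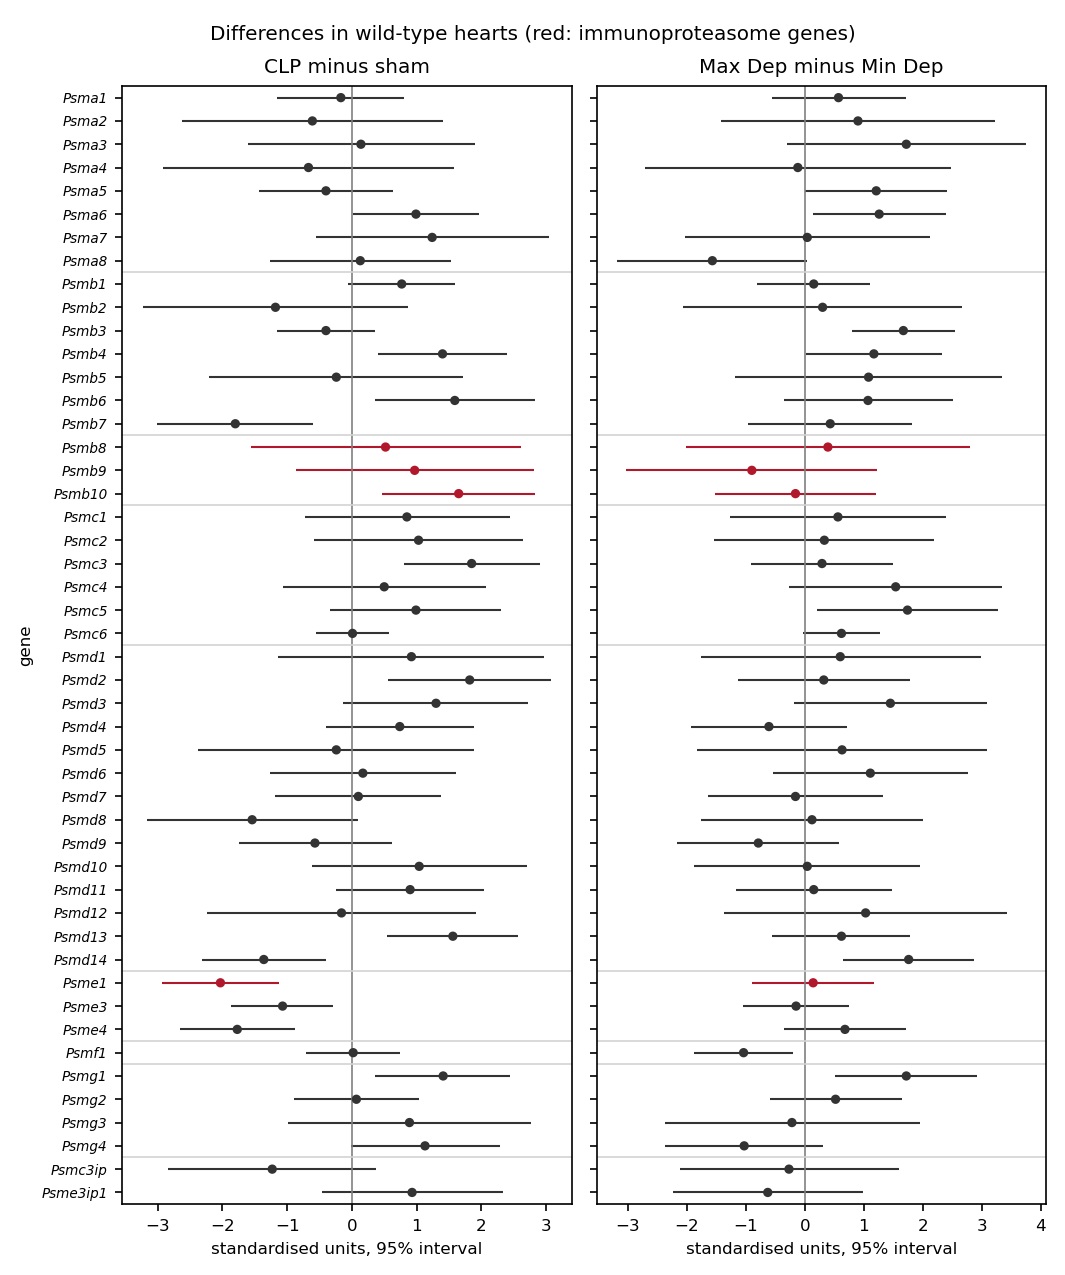
Difference of each proteasome gene in wild-type hearts, CLP minus sham (left) and Max Dep minus Min Dep (right), in standardised units with 95% intervals from the limma fit (9 hearts); immunoproteasome genes are red. Psme1 has the lowest value on the left, -2.03, and most genes lie right of 0 on the right, where the median is 0.41.

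In Nos2 knockout hearts the core subunit Psma7 and the cap subunit Psmd7 had the largest differences between CLP and sham, and none passed the threshold. The fit held CLP replicates 2 and 3 and sham replicates 1 to 3. Limma's eBayes called 0 of 48 members, as it called 0% of all genes (unmoderated statistics also called 0 members and 0 of all genes), and 4 members had an unadjusted p under 0.05 (11.9% of all genes): 3 higher (5.83% of all) and 1 lower (6.08% of all). Unmoderated statistics gave 2 such members in place of 4, or 4.17% against 9.61% of all genes. The difference was above 0 in 36 of 48 (51.5% of all genes), with a median of 0.28 against 0.03 over all genes. Sham replicate 1 had the lowest mean over the members, -0.65, against 0.18 and 0.14 in the other sham hearts, and without it the median difference was -0.01. Its control end difference of -1.97 was also the lowest of the sham hearts, and the part of RNA quality in that median was not tested.

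Psma7 was at 1.41, 2.13 and 1.94 in knockout CLP hearts, replicates 1 to 3, against -0.93, 0.00 and -0.56 in knockout sham hearts. All CLP hearts lay above all sham hearts. The difference was 2.53 ± 0.46 log units (SE; 95% interval 1.42 to 3.64), from 2.04 ± 0.13 in CLP (SD, n = 2) and -0.50 ± 0.47 in sham hearts (SD, n = 3), with an adjusted p of 0.108 by limma. With all 6 arrays it was 2.32 with an adjusted p of 0.0387 by limma's eBayes. That was the only alternative of 9 in which any knockout member named here passed. It adds CLP replicate 1, which lay between the other CLP columns in 76% of probe sets and can make the spread too small. Genes outside the proteasome passed in that fit as well, as counted in the last section, so the call does not set the proteasome apart. Over the 9 alternatives the adjusted p of Psma7 ran from 0.0387 to 0.358. In wild-type hearts the difference of Psma7, on the standardised scale, was 1.24 ± 0.74 (adjusted p = 0.438).

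Psmd7, a lid subunit and partner of Psmd14, was at 1.08, 2.21 and 1.19 in knockout CLP hearts, against -0.50, -0.03 and -0.34 in knockout sham hearts, a difference of 1.99 ± 0.49 log units (SE, adjusted p = 0.185). Its groups did not overlap, but its probe sets disagreed, with 3.32 ± 0.66 for 1451056_at of Psmd7, 2.39 ± 1.27 for 1432820_at and 0.25 ± 0.51 for 1454368_at. Psma4, an alpha subunit, was at 0.71, 0.75 and 1.42 in knockout CLP hearts, against -1.39, 0.00 and -0.16 in knockout sham hearts (1.60 ± 0.58 SE, adjusted p = 0.345). Psma3, another alpha subunit, was at -0.74, 0.00 and -1.74 in knockout CLP hearts, against 0.73, 1.16 and 0.54 in knockout sham hearts (-1.68 ± 0.61 SE, adjusted p = 0.352). Both had CLP hearts on a single side of the sham hearts.

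The immunoproteasome genes of knockout hearts overlapped or lay lower in CLP, except Psmb10. Psme1 was at -0.61, -1.74 and 0.08 in knockout CLP hearts, against -0.51, 1.25 and 1.31 in knockout sham hearts, a difference of -1.51 ± 0.80 log units (SE, adjusted p = 0.54). Psmb8 was at -0.24, 0.00 and -0.59 in knockout CLP hearts, against 1.21, 0.00 and 0.64 in knockout sham hearts (-0.91 ± 0.52 SE, adjusted p = 0.573). The values of Psmb8 touched at 0 when written to 2 decimals. Psmb9 was at -0.35, 0.00 and -1.0 in knockout CLP hearts, against 1.69, -0.93 and 0.08 in knockout sham hearts (-0.78 ± 0.82 SE, adjusted p = 0.80). Psmb10 was at 0.46, 0.17 and 0.90 in knockout CLP hearts, against -0.04, -0.16 and 0.00 in knockout sham hearts (0.60 ± 0.44 SE, adjusted p = 0.681), with all CLP hearts above all sham hearts. The counterparts Psmb5, Psmb6 and Psmb7 differed by 1.25 ± 0.83, -0.03 ± 0.46 and 0.03 ± 1.26 (SE).

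The remaining members of the knockout comparison had wide intervals. Psme4 differed by -0.79 ± 0.96 (SE, adjusted p = 0.83) and Psme3 by 0.70 ± 0.60 (SE, adjusted p = 0.745). Psmd2 differed by 1.61 ± 1.08 (SE, adjusted p = 0.653) and Psma6 by -1.0 ± 0.61 (SE, adjusted p = 0.609). The probe sets of Psma6 disagreed, with -4.31 ± 1.81 for 1435317_x_at, -0.63 ± 0.50 for 1437144_x_at, 0.03 ± 0.58 for 1416506_at and 0.92 ± 0.75 for 1435316_at. Psmd14 differed by 1.16 ± 0.62, Psmg1 by 0.80 ± 0.57, Psmd11 by 0.85 ± 0.61, Psmd4 by 0.59 ± 0.63, Psmb4 by 0.32 ± 0.50 and Psmf1 by -0.63 ± 0.45 log units (SE), with adjusted p-values of 0.54 to 0.871. Among the 14 Psmd genes 13 lay higher in knockout CLP hearts, and among the core assembly chaperones 4 of 4 did. The Psmd mean was 0.05 and 0.49 in CLP replicates 2 and 3, against -0.99, 0.02 and 0 in the sham hearts. The chaperone mean was -0.07 and 0.68, against -0.51, 0.12 and -0.04. Sham replicate 1 was the lowest sham heart in both, and these counts were not made without it. Groups without overlap and higher in CLP were 8 (15% of all genes), and lower 2 (14% of all), in the 5 arrays of the fit.

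**Figure D5:**
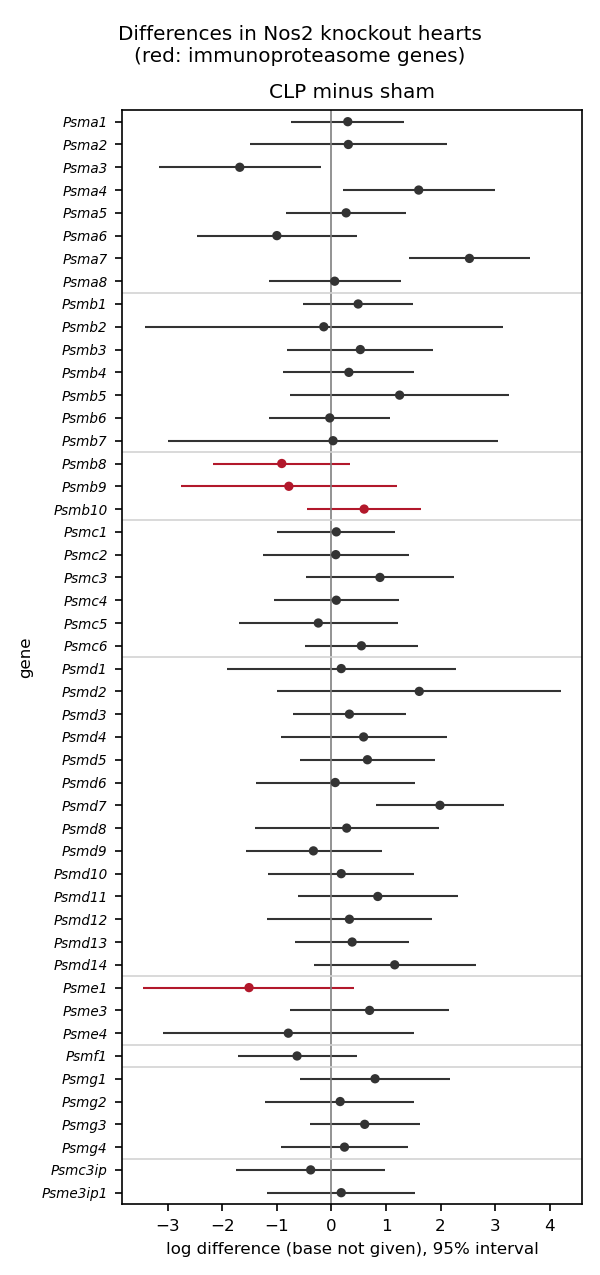
Difference of each proteasome gene in Nos2 knockout hearts, CLP minus sham, in log units of unknown base with 95% intervals from the limma fit (2 CLP and 3 sham hearts); immunoproteasome genes are red. Psma7 has the highest value, 2.53, and of the immunoproteasome genes Psmb10 alone lies right of 0.

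Genes that work with the proteasome gave few calls in the same fits. Of 14 accessory genes measured, 0 were called in wild-type CLP against sham by limma, with 2 higher and 2 lower at an unadjusted p under 0.05 and a median difference of 0.54. Of all genes, 9.23% were higher and 9.38% lower at that p. Pomp, the factor that matures the core, was at 0.81, 0.53 and 0.44 in Max Dep, 0.52, 0.10 and 1.21 in Min Dep, and -2.37, -0.45 and -0.66 in sham hearts (1.76 ± 0.49 SE, adjusted p = 0.143). Ufd1, which delivers substrates with the Vcp ATPase, was at 0.02, -0.36 and -0.14 in Max Dep, -1.10, -1.44 and -0.15 in Min Dep, and 0.76, 1.60 and 0.89 in sham hearts (-1.61 ± 0.34 SE, adjusted p = 0.0842). In both genes the septic and sham hearts did not overlap.

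Of 11 ubiquitin and shuttle genes, 0 were called and 3 lay higher and 8 lower, with a median difference of -0.59 and 1 gene in each direction at an unadjusted p under 0.05. Stub1, the ubiquitin ligase that marks misfolded proteins held by chaperones, was at 0.79, 0.82 and 1.41 in Max Dep, 0.68, -0.04 and -0.08 in Min Dep, and -0.85, -1.21 and -1.53 in sham hearts (1.79 ± 0.27 SE, adjusted p = 0.0543). Its septic hearts lay wholly above its sham hearts. Ube2d1, a ubiquitin-conjugating enzyme, differed by -1.73 ± 0.42 (SE, adjusted p = 0.113).

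Of 15 genes that control proteasome expression, 0 were called, with 2 in each direction at an unadjusted p under 0.05. Nfe2l2, the Nrf2 factor of the antioxidant response, was at -0.34, -0.05 and -0.71 in Max Dep, -1.42, -1.19 and -0.09 in Min Dep, and 1.28, 1.21 and 1.51 in sham hearts. Every septic heart lay below every sham heart, by -1.97 ± 0.33 (SE, adjusted p = 0.0569). Nfe2l1, the factor that raises proteasome genes when the proteasome is blocked, was outside the naming rule and differed by -1.57 ± 0.66 (SE, adjusted p = 0.275). Nfyc, a subunit of the factor that binds CCAAT boxes, differed by 1.58 ± 0.54 (SE, adjusted p = 0.199).

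Downstream of the proteasome, 1 of 11 class I antigen processing genes was called. Calr, a chaperone of the endoplasmic reticulum, rose to 1.16, 1.11 and 0.58 in Max Dep and 0.23, 0.16 and 0.94 in Min Dep, against -1.53, -1.35 and -1.08 in sham hearts. The difference was 2.02 ± 0.24 (SE, limma's adjusted p = 0.0357), and 2.27 ± 0.28 in Max Dep against sham (adjusted p = 0.0449). The list as a whole had 5 genes higher and 6 lower, and B2m, the light chain of class I molecules, differed by -1.39 ± 0.57 (SE, adjusted p = 0.268). Of 22 interferon genes, 0 were called by limma in wild-type CLP against sham, with a median of 0.22. At an unadjusted p under 0.05 there was 1, against 18.6% of all genes. In knockout hearts 5 of the 22 lay higher and 17 lower, with a median of -0.76 and 0 called by eBayes. Of all genes 11.9% had an unadjusted p under 0.05 there, and of the 22 interferon genes 2 did. Those were Cxcl9 (-3.58 ± 0.71 SE, adjusted p = 0.128) and Iigp1 (-2.75 ± 0.56 SE, adjusted p = 0.132), both classical interferon-gamma targets.

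The other cell types of the heart gave these counts in wild-type CLP against sham, where 18.6% of all genes had an unadjusted p under 0.05. Of 12 cardiomyocyte genes 5 lay higher and 7 lower, with 2 higher and 3 lower at an unadjusted p under 0.05. The 1 called was Myh7, the slow myosin heavy chain, which lay higher (2.03 ± 0.18 SE, limma's adjusted p = 0.0276). Of 10 fibroblast genes 1 lay higher and 9 lower, with a median of -1.57 and 0 called by limma (7 at an unadjusted p under 0.05). Of 10 endothelial genes 8 lay higher, with a median of 1.03 and 0 called (5 at an unadjusted p under 0.05). Of 13 T and NK cell genes 5, of 8 B cell genes 3 and of 7 dendritic cell genes 5 lay higher, with 0 called in each and 1, 2 and 0 genes at an unadjusted p under 0.05. In knockout CLP hearts the macrophage list lay higher in 13 of 15 genes (median 2.91) and the endothelial list in 1 of 10 (median -2.65). By eBayes 0 were called in each, and 11 and 6 had an unadjusted p under 0.05, against 11.9% of all genes.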

How the data were processed

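Total RNA of mouse hearts was hybridised to 15 oligonucleotide expression arrays, and groups were taken from the sample titles. Each array was treated as 1 heart, since no pooling is given. The authors deposited a value table per genotype (9 and 6 arrays), each with 22690 probe sets. The sources used here do not name the software. The deposited wild-type score is standardised: once the scaling of each array was reversed, the mean was 0 and the SD 1.0 in all probe sets. The deposited knockout score has the form of log values centred on each probe set. No intensities were used, so signal over background is unknown and no dim probe sets were removed; the number of arrays limits the precision.

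The 64 control probe sets were left out. Of the other 22626, 20380 had a single gene in the platform annotation, 691 more than 1 gene and 1555 no gene. The single-gene probe sets were averaged to 12393 genes; 20351 of these probe sets matched a RefSeq symbol. The name rule was applied to these genes.

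Linear models (lmFit, limma 3.58.1, R 4.3.3) compared the groups, with Benjamini-Hochberg adjustment over all genes and a threshold of 0.05. Wild-type statistics were unmoderated (6 residual degrees of freedom), because eBayes pulls the residual SDs of standardised rows to a common value. The knockout fit used eBayes on 5 arrays without CLP replicate 1. The members and the gene lists were chosen with earlier results of these data known. Genes named with values were the immunoproteasome genes and their counterparts, members with separate roles, the 3 largest differences in each direction per comparison, and from the other lists the genes called and the largest 2 differences. A few further genes at an unadjusted p under 0.05 were named after their values were seen. Alternatives were the other moderation, every probe set, undone array scaling, the control end difference as covariate, only the 6 arrays compared, all 6 knockout arrays, rescaled knockout arrays, and leaving out each array. The fit was tested on simulated data.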

Additional observations from a re-analysis of the deposited data

Results flagged for a closer look

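The 48 genes were screened for a heart far from the rest of the 6 septic wild-type hearts, by Dixon's gap criterion (critical value 0.625), and 2 met it. Chance alone marks about 1 in 20 groups, and groups of 3 were not screened. Psmb9 in Min Dep replicate 3 was at 2.74, with the next heart at 0.40, a gap of 0.704 of the range. Psmc1, an ATPase of the cap, was at -1.25 in Min Dep replicate 2, with the next heart at 0.33, a gap of 0.718 of the range.

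A screen for differences of opposite direction flagged the 4 genes below, and other members also had differences of opposite sign. Psmd14, for example, differed by -1.36 in wild-type and 1.16 in knockout CLP against sham. Psmb3 differed by 0.44 in Max Dep and -1.23 in Min Dep against sham. Psma3 differed from sham by 1.01 in Max Dep and -0.72 in Min Dep, with each heart of a group on its own side of the sham mean, and the septic groups differed by 1.72 ± 0.83 (SE, limma's adjusted p = 0.541). Psmf1 differed from sham by -0.50 in Max Dep and 0.54 in Min Dep. The direct comparison of the septic groups gave -1.04 ± 0.34 for Psmf1 (SE, limma's adjusted p = 0.447). Psmb9 differed by 0.97 in wild-type CLP against sham and by -0.78 in knockout CLP against sham. Psme3 differed by -1.07 in wild-type and 0.70 in knockout hearts. The differences between genotypes were not tested, because they lie in separate tables on separate scales.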

How the results depend on the processing

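No paired analysis was possible because the labels give no replicate numbers shared between groups. The counts of all genes called depended on the setting. For wild-type CLP against sham (89) they were 0 with eBayes, 513 by probe set, 179 with array scaling undone, 1 with the end difference as covariate, and 0 to 186 leaving out 1 array. For Max Dep against sham (56) they were 0, 220 and 0 with eBayes, by probe set and with the covariate, 7 with only the 6 arrays compared, and 0 to 26 leaving out 1 array. For Min Dep against sham (7) they were 0 with eBayes, 112 by probe set, 27 with scaling undone, 2 with the covariate, 1 with only the 6 arrays, and 0 to 68 leaving out 1 array. For Max Dep against Min Dep (0) they were 2 with scaling undone and 0 to 1 leaving out 1 array. For knockout CLP against sham (0) they were 295 with all 6 arrays, including the column that follows the other CLP columns.

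Proteasome probe sets called were 2, 1 and 2 of 85 in CLP, Max Dep and Min Dep against sham (2.52%, 1.08% and 0.55% of all probe sets were called), and 1 knockout member was called with all 6 arrays. In the counts that follow, shares of all genes are not given for undone scaling, only the 6 arrays or 1 array left out. Members at an unadjusted p under 0.05 in CLP against sham (13) became 8 with the covariate (12.7% of all genes) and 10 to 19 leaving out 1 array. In Max Dep against sham (14) they became 22 counting any of a gene's probe sets, 5 with the covariate (10.5% of all genes) and 10 to 15 leaving out 1 array. Counting any probe set favours genes with several. By probe set, 28 of the members' 85 (32.9%) were at that p in Max Dep against sham, against 19.8% of all probe sets. In Min Dep against sham (11) the members were 8 to 15 leaving out 1 array. In Max Dep against Min Dep (8) they became 5 with scaling undone, 4 with the covariate (7.84% of all genes), 4 with only the 6 arrays, and 4 to 10 leaving out 1 array. In knockout hearts (4) they became 2 without moderation and 3 to 5 leaving out 1 array. The median difference over the members ran, leaving out 1 array, from 0.19 to 0.59 in CLP, 0.46 to 0.71 in Max Dep and -0.12 to 0.42 in Min Dep against sham, 0.26 to 0.76 in Max Dep against Min Dep, and -0.01 to 0.56 in knockout hearts; with the covariate it was 0.29 in Max Dep against sham. The causes were not tested. Of 667 values of 50 results on single genes, 662 kept direction and side of the threshold and 5 newly passed it. None of these results passed in the main fit, so keeping the side of the threshold meant not passing again. With every probe set tested, a gene counted by its probe set of smallest p, and its other probe sets did not count. The tally therefore does not measure how firm the results are.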
